A study of Mus musculus with 6 samples.

Results

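The genes described are 10 of the 41388 genes in each deposited table: the cytokine genes Il6, Osm and Il10, the receptor genes Il6ra, Il6st, Lifr, Il10ra and Il10rb, the transcription factor gene Stat3 and the feedback inhibitor gene Socs3. They were taken by symbol through the GRCm38 GENCODE annotation, and each symbol matched 1 Ensembl gene. RNA came from foamy macrophages (live CD64+CD11b+ cells high in a neutral lipid dye, BODIPY, and in side scatter, 3 libraries) and from non-foamy macrophages (live CD64+CD11b+ cells low in both, 3 libraries). Both populations were sorted from the aortic intima of C57BL/6 mice that are ApoE -/-, which lack the lipoprotein ligand apolipoprotein E and develop plaques; 6 mice in all were fed a Western diet, over 28 weeks. All groups share the ApoE deletion and the diet, no other genotype was analysed here, and which mice went into which library is not stated. The p-values therefore reflect how much the libraries of a group varied, and that variation may be technical.

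Interleukin-6 binds its receptor subunit Il6ra and then the shared signalling subunit gp130, which Il6st encodes. Oncostatin M (Osm) and leukaemia inhibitory factor also signal through gp130, and leukaemia inhibitory factor does so together with the receptor subunit Lifr. Interleukin-10 binds Il10ra, which then recruits Il10rb, a subunit shared with other cytokines of its family. Both routes activate Stat3 through Janus kinases, and Stat3 induces Socs3, a protein that binds gp130 and dampens the interleukin-6 signal but leaves that of interleukin-10 largely intact. In macrophages interleukin-10 is known for restraining inflammatory genes.

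Upstream sequence bears on these genes because Stat3 binds palindromes of the form TTCNNNGAA. The RefSeq promoter table (GRCm38.p6) held 7 windows for 6 of the 10 genes. The motif, which reads the same on both strands, was searched in the 250 bases before each start. It was present in 1 of the 7 windows, that of Socs3, and in 7.02% of all 32851 windows of that length. The Socs3 match began 154 bases before the RefSeq start. That window lies wholly within the Socs3 gene as counted here, from 117966079 to 117970047. The match is thus inside that span and not upstream of it. The windows of the genes with the largest differences are shown in the genes' own direction, with the motif in capitals: Socs3 at chr11:117969367-117969616 on the minus strand, Lifr, the first of its 2 windows, at chr15:7129322-7129571 on the plus strand and Il6 at chr5:30012864-30013113 on the plus strand. A match is a string of letters and does not show binding.
Socs3: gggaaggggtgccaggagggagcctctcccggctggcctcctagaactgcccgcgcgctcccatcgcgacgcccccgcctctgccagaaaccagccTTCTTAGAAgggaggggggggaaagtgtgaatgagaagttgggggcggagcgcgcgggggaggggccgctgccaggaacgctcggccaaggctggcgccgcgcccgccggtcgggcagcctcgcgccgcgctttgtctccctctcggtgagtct
Lifr: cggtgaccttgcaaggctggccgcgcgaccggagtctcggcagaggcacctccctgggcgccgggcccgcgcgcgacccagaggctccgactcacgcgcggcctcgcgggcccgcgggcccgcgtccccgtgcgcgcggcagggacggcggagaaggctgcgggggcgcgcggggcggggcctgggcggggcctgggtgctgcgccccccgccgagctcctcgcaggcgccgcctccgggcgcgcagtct
Il6: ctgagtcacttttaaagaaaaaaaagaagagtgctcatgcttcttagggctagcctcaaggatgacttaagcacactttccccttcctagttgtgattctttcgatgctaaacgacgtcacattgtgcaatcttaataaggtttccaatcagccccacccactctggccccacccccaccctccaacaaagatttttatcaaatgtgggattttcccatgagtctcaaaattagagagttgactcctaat

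Foamy libraries held between 18592421 and 24279802 counts in genes, and non-foamy libraries between 15628627 and 24619075. Fewer genes had a count in each foamy library (between 15595 and 17757) than in each non-foamy one (between 19380 and 24701). Apoe, the disrupted gene, had between 2.59 and 7.01 CPM over the 6 libraries. The 8 macrophage markers checked were read in both populations. They summed to between 47949.6 and 52784.1 CPM in foamy libraries and to between 24257.9 and 30808.2 CPM in non-foamy ones, and Lyz2 and Cd68 made up most of each sum. In foamy libraries 3 were called higher (Cd68, Lyz2 and Mertk) and 4 lower (Adgre1, Csf1r, Cd14 and Itgam, which encodes CD11b). Fcgr1, which encodes CD64, was not called (log2 fold change 0.35, edgeR adjusted p = 0.50). Other marker groups moved with the sort. Monocyte markers summed to between 36.9 and 45.4 CPM in foamy libraries and to between 407 and 555 CPM in non-foamy ones, and 10 immediate early and heat shock genes, a class that enzymatic digestion of tissue is known to induce, to between 1098 and 1129 CPM in foamy libraries and to between 2278 and 2619 CPM in non-foamy ones. Here and below, CPM is the count scaled to a common library size with TMM factors. In these bulk samples, fewer cells of a type and less RNA per cell cannot be told apart.

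Lifr, Socs3 and Osm were lower in foamy than in non-foamy macrophages, and none of the 9 genes tested was called higher. The falls were 56.0-fold for Lifr, 3.36-fold for Socs3 and 2.55-fold for Osm. Il6 was read in non-foamy libraries only. The receptor genes Il6st, Il10ra and Il10rb and the transducer gene Stat3 had log2 fold changes between -0.37 and 0.32 and did not pass the test. Of the 9 genes that passed the filter on low counts, 3 were called lower by edgeR's quasi-likelihood test at a Benjamini-Hochberg adjusted p of 0.05 over 11303 genes, where 5.41% of all genes tested were called, 2.9% lower and 2.5% higher. The count of 0 called higher was also 0 at an unadjusted p of 0.05, where 976 of all genes tested were higher. It was 0 with DESeq2 too, which called 528 of all genes tested higher. With only 9 genes tested, a count of 0 lies near these shares. All 3 foamy values lay below all 3 non-foamy values in 4 of the 9 tested genes, against 13.3% of all genes tested, and above them in 1, against 12.4% (25.7% in either direction). The median log2 fold change was -0.95 over the 9 genes and -0.04 over all genes tested. The genes were chosen with earlier results known, so these counts are descriptions.

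**Figure D1:**
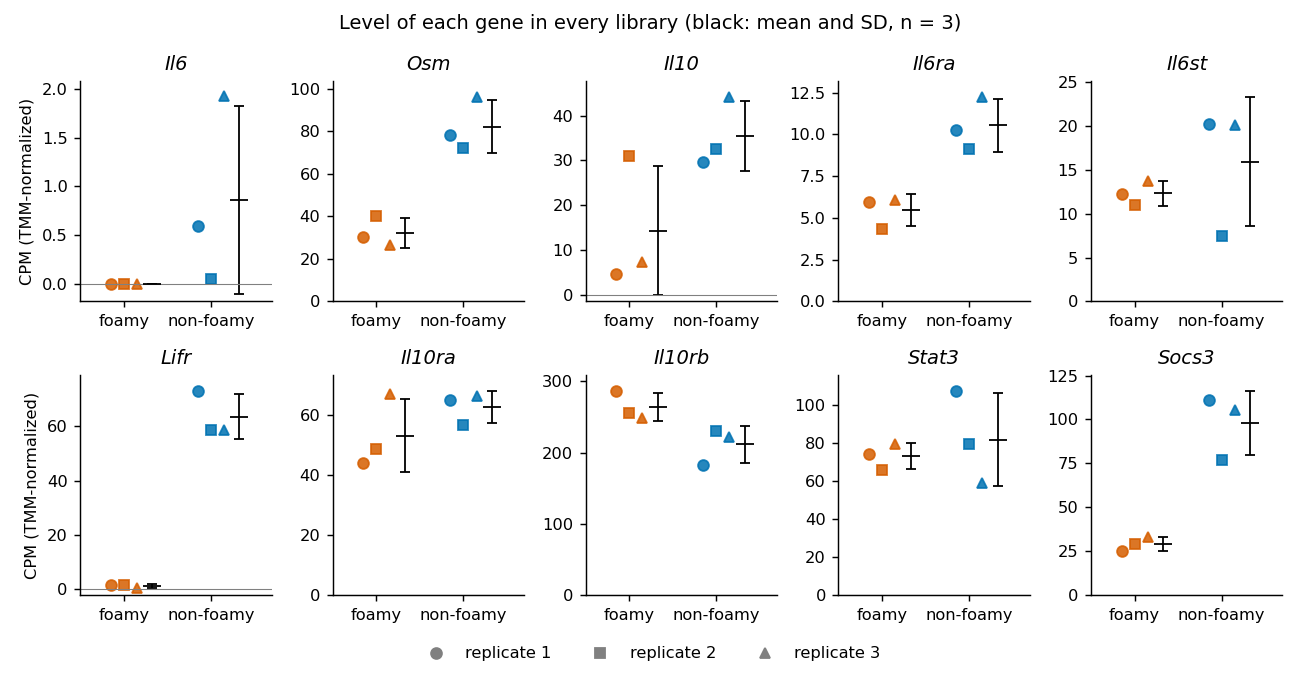
CPM (TMM-normalized, y axis from 0 or just below it, own scale per panel) of each of the 10 genes in the 3 foamy libraries (left, orange) and the 3 non-foamy libraries (right, blue), with mean and SD in black. The groups are apart in the panels of Osm, Il6ra, Lifr, Il10rb and Socs3, and 1 foamy library of Il10 stands at 31.0 CPM, among the non-foamy values. For Il6, non-foamy replicate 2, with 1 count, is barely above the foamy libraries at 0.

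**Figure D2:**
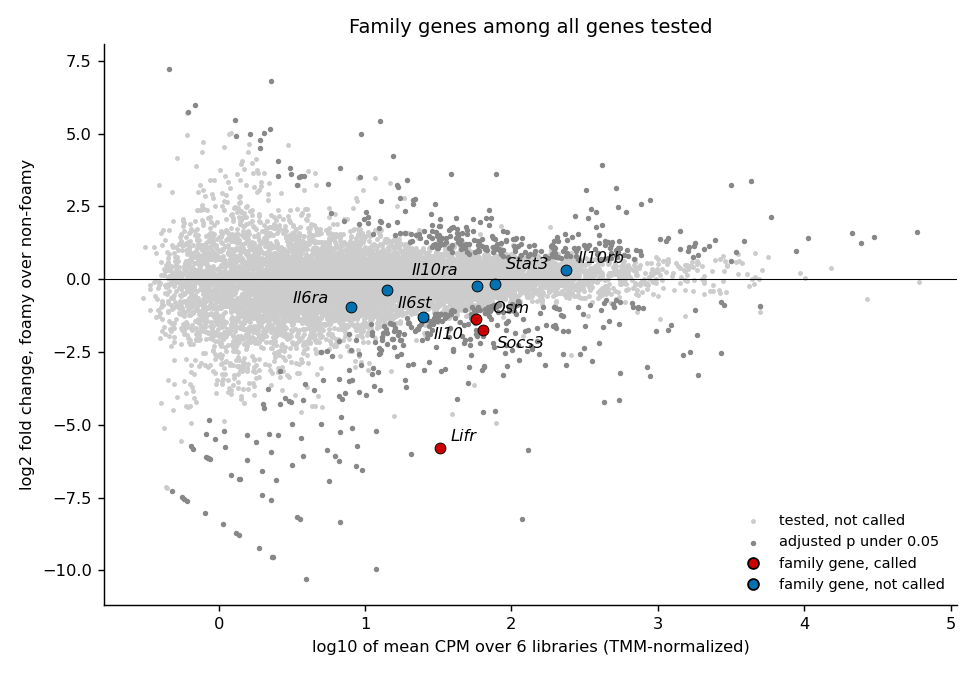
Log2 fold change (foamy over non-foamy, y axis) against log10 of the mean CPM (x axis) for the 11303 genes tested, with the 9 tested family genes marked, red where called and blue where not. Lifr, at -5.81, is far below the other 8, which sit between -1.75 and 0.32.

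Among the cytokine genes, Osm encodes oncostatin M, which macrophages and neutrophils release and which acts on vessel wall cells. Osm had 30.0, 40.1 and 26.5 CPM in foamy replicates 1 to 3, against 78.3, 72.2 and 95.9 CPM in non-foamy replicates 1 to 3. The highest foamy library lay well below the lowest non-foamy one. The mean of Osm was 32.2 ± 7.04 CPM in the foamy group and 82.1 ± 12.3 CPM in the non-foamy group (SD, n = 3 each; log2 fold change -1.35, SE 0.24, edgeR adjusted p = 0.0085). Osm no longer passed once foamy replicate 3 was left out (log2 fold change -1.22, edgeR adjusted p = 0.057). The 6 neutrophil markers summed to between 44.7 and 68.6 CPM in foamy libraries and to between 15.2 and 44.5 CPM in non-foamy ones, but its members were mixed. Of 4 tested, Mmp8 was called higher (log2 fold change 2.77), S100a9 was called lower (-8.23) and the median was -0.11; the defining marker Ly6g had 0 counts in all foamy libraries, against 3, 0 and 0 in non-foamy replicates 1 to 3. The monocyte and the immediate early and heat shock sums were lower in foamy libraries, as Osm was; the part of these markers in the Osm difference was not tested. Osm (ENSMUSG00000058755) lies on chromosome 11 from 4236420 to 4241026 on GRCm38.

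Il6 encodes interleukin-6 itself and was close to the limit of detection. It had 0 counts in each of the 3 foamy libraries, against 11, 1 and 49 counts in non-foamy replicates 1 to 3. A count of 0 allows up to 3 counts, which is between 0.124 and 0.161 CPM (here without TMM factors) in a foamy library. Over each group as a whole, Il6 had 0 of 63513964 counts in foamy and 61 of 57110887 counts in non-foamy libraries. With 3 counts over the foamy group as the floor, this puts Il6 22.6-fold lower in foamy libraries. The bound is also without TMM factors, and would be smaller with them, since every foamy factor was below every non-foamy one. It takes the 61 counts as exact and covers only counting error in foamy libraries. That bound pools libraries that differ widely, since non-foamy replicate 3 held 49 of the 61 counts and non-foamy replicate 2 had only 1. Il6 did not pass the filter on low counts and was not tested; without a filter on low counts it was not called (edgeR adjusted p = 0.070). Fibroblasts can make interleukin-6, and the sort on CD64 and CD11b should remove them. Their markers summed to 6.68, 2.84 and 170 CPM in foamy replicates 1 to 3, against 129, 11.8 and 306 CPM in non-foamy replicates 1 to 3. Single genes weighed heavily in these sums: Dcn had 265 CPM in non-foamy replicate 3 and Lum had 131 CPM in foamy replicate 3. The part of fibroblasts in the Il6 counts was not tested. Il6 (ENSMUSG00000025746) lies on chromosome 5 from 30013161 to 30019968.

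Il10 encodes interleukin-10. It had 4.69, 31.0 and 7.43 CPM in foamy replicates 1 to 3, against 29.6, 32.6 and 44.2 CPM in non-foamy replicates 1 to 3. Foamy replicate 2 lay between the lowest 2 non-foamy libraries, so that the groups overlapped, and the other foamy libraries were below every non-foamy one. The mean of Il10 was 14.4 ± 14.4 CPM in the foamy group and 35.4 ± 7.70 CPM in the non-foamy group, a difference that was not called (SD, n = 3 each; log2 fold change -1.30, SE 0.58, edgeR adjusted p = 0.25). Without foamy replicate 2 the log2 fold change was -2.54 and Il10 was called (edgeR adjusted p = 0.012), and it was also called without a filter on low counts (log2 fold change -1.23, edgeR adjusted p = 0.026). The 6 dendritic cell markers summed to 0.33, 16.0 and 2.37 CPM in foamy replicates 1 to 3 and to 197, 252 and 33.04 CPM in non-foamy replicates 1 to 3. Only the C-type lectin gene Cd209a was tested, and it was not called (log2 fold change -4.95, edgeR adjusted p = 0.28). Cd209a had 0.19, 14.5 and 0.32 CPM in foamy replicates 1 to 3, against 178, 249 and 32.1 CPM in non-foamy replicates 1 to 3. It made up most of the sum in foamy replicate 2 and in each non-foamy library. Ccr7 was at 0 in all foamy libraries. Clec9a was at 0 in all non-foamy libraries and highest in foamy replicate 3, at 1.78 CPM. The part of dendritic cells in the Il10 values was not tested. Il10 (ENSMUSG00000016529) lies on chromosome 1 from 131019845 to 131024974.

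Of the receptor genes, Lifr differed most. It had 1.71, 1.39 and 0.27 CPM in foamy replicates 1 to 3, from 36, 25 and 5 counts, against 73.2, 58.8 and 58.7 CPM in non-foamy replicates 1 to 3, from 1354, 1071 and 1495 counts. The populations were far apart, and the 3 non-foamy libraries were close to each other. The mean of Lifr was 1.12 ± 0.75 CPM in the foamy group and 63.6 ± 8.32 CPM in the non-foamy group (SD, n = 3 each; log2 fold change -5.81, SE 0.52, edgeR adjusted p = 1.2e-04), and was called under all 14 alternative settings, with log2 fold changes between -6.25 and -5.34. Lifr is also expressed by cells of the vessel wall. Endothelial markers summed to between 9.68 and 14.9 CPM in foamy libraries and to between 12.5 and 16.6 CPM in non-foamy ones, smooth muscle markers to between 3.13 and 27.6 CPM in foamy libraries and to between 4.17 and 22.7 CPM in non-foamy ones. With the fibroblast sums given for Il6, each of these sums overlapped between the populations. No member of these 3 marker lists was called. Of the other sums given above, those of monocyte, dendritic cell, and immediate early and heat shock genes did not overlap and were lower in foamy libraries. Those of macrophage and neutrophil markers did not overlap either and were higher in foamy libraries. The part of any of these marker groups, those of vessel wall cells included, in the Lifr difference was not tested. Lifr (ENSMUSG00000054263) lies on chromosome 15, from 7129559 to 7197489 in the deposited table.

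Il6ra, the subunit that binds interleukin-6, was lower in each foamy library than in each non-foamy one but was not called. It had 5.92, 4.34 and 6.08 CPM in foamy replicates 1 to 3, against 10.3, 9.12 and 12.2 CPM in non-foamy replicates 1 to 3 (log2 fold change -0.95, SE 0.44, edgeR adjusted p = 0.27). Il6st, the gp130 gene, had 12.3, 10.95 and 13.8 CPM in foamy replicates 1 to 3, against 20.3, 7.47 and 20.1 CPM in non-foamy replicates 1 to 3. The non-foamy libraries fell on both sides of the foamy ones (log2 fold change -0.37, SE 0.42, edgeR adjusted p = 0.73). Il6ra (ENSMUSG00000027947) lies on chromosome 3 from 89869324 to 89913162 and Il6st (ENSMUSG00000021756) on chromosome 13 from 112464070 to 112510086.

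The interleukin-10 receptor genes were measured at higher levels and differed little between the populations. Il10ra, the ligand-binding subunit, had 44.0, 48.8 and 67.0 CPM in foamy replicates 1 to 3, against 65.2, 56.7 and 66.4 CPM in non-foamy replicates 1 to 3 (log2 fold change -0.24, SE 0.23, edgeR adjusted p = 0.68). Foamy replicate 3 was the highest of the 6 libraries and the other foamy libraries were the lowest. Il10rb, the shared subunit, had 286, 256 and 249 CPM in foamy replicates 1 to 3, against 182, 230 and 222 CPM in non-foamy replicates 1 to 3. It was the only one of the 10 genes with every foamy library above every non-foamy one, and it was not called (log2 fold change 0.32, SE 0.18, edgeR adjusted p = 0.38). With total counts as the only scaling, the Il10rb log2 fold change was 0.05, while the median of all genes tested moved to -0.31 from -0.04. Il10ra (ENSMUSG00000032089) lies on chromosome 9 from 45253837 to 45269149 and Il10rb (ENSMUSG00000022969) on chromosome 16 from 91406164 to 91425834.

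Downstream of the receptors, the transducer and its inhibitor differed from each other. Stat3 had 74.3, 65.7 and 79.7 CPM in foamy replicates 1 to 3, against 107, 79.4 and 59.0 CPM in non-foamy replicates 1 to 3. The highest and the lowest value both came from the non-foamy group (log2 fold change -0.16, SE 0.24, edgeR adjusted p = 0.81), and the sign turned without non-foamy replicate 1 (0.080). Socs3 had 25.4, 29.1 and 32.9 CPM in foamy replicates 1 to 3, against 111, 77.0 and 105 CPM in non-foamy replicates 1 to 3. Its lowest non-foamy library was well above its highest foamy one. The mean of Socs3 was 29.1 ± 3.78 CPM in the foamy group and 97.8 ± 18.3 CPM in the non-foamy group (SD, n = 3 each; log2 fold change -1.75, SE 0.24, edgeR adjusted p = 0.0016), and was called under all 14 alternative settings, with log2 fold changes between -2.02 and -1.64. Immediate early and heat shock genes fell with it: 9 of 10 were called lower and the median log2 fold change of the 10 was -1.71; their part in the Socs3 difference was not tested. Stat3 (ENSMUSG00000004040) lies on chromosome 11 from 100885098 to 100939540 and Socs3 (ENSMUSG00000053113) on the same chromosome from 117966079 to 117970047.

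All 10 genes are protein-coding. Where the GENCODE annotation places another gene across a member, reads of both cannot be told apart without strand, which the sources used here do not state. Stat3 overlaps Stat5a on the other strand, Il6ra overlaps an antisense gene and Il10ra a pseudogene and a microRNA gene. Il10rb shares its strand with Gm21970, which had 0 counts in all 6 libraries.

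Levels of different genes were compared per kilobase, as deposited RPKM. In foamy libraries Il10rb was highest, at 63.0 ± 3.69 RPKM, followed by Il10ra at 13.9 ± 3.17, Osm at 13.0 ± 3.54, Il10 at 10.4 ± 10.9, Socs3 at 9.21 ± 1.39, Stat3 at 6.99 ± 0.47, Il6ra at 1.48 ± 0.20, Il6st at 1.01 ± 0.09 and Lifr at 0.10 ± 0.07 RPKM (SD, n = 3 each), with Il6 listed at 0. In non-foamy libraries Il10rb was also highest, at 60.7 ± 4.41 RPKM, followed by Osm at 39.6 ± 4.77, Socs3 at 37.3 ± 8.41, Il10 at 29.5 ± 4.66, Il10ra at 19.7 ± 2.28, Stat3 at 9.58 ± 3.51, Lifr at 6.80 ± 1.38, Il6ra at 3.45 ± 0.45, Il6st at 1.59 ± 0.76 and Il6 at 0.84 ± 0.90 RPKM. The ranges of neighbours overlapped for Il10ra and Osm, for Osm and Il10 and for Il10 and Socs3 in foamy libraries. In non-foamy libraries they overlapped for Osm and Socs3, for Socs3 and Il10, for Stat3 and Lifr and for Il6st and Il6. RPKM depends on the deposited length, which at 11099 bases for Il6st and 10330 bases for Lifr is far above the 1087 bases of Il6.

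Ratios within a library show how the subunits stand to each other per kilobase. Lifr over Il6st was 0.149, 0.136 and 0.021 in foamy replicates 1 to 3, against 3.88, 8.46 and 3.14 in non-foamy replicates 1 to 3. Per kilobase, Lifr was below Il6st in every foamy library and above it in every non-foamy one, and the log2 ratio differed by -5.96 (foamy minus non-foamy; exact permutation test, two-sided, p = 0.10, n = 3 each). Socs3 over Stat3 was 1.13, 1.46 and 1.36 in foamy replicates 1 to 3, against 3.41, 3.20 and 5.88 in non-foamy replicates 1 to 3 (difference of log2 ratios -1.61, exact permutation p = 0.10). Il6ra over Il6st was 1.60, 1.31 and 1.47 in foamy replicates 1 to 3, against 1.68, 4.05 and 2.02 in non-foamy replicates 1 to 3 (difference -0.72, exact permutation p = 0.10), where foamy replicate 1 and non-foamy replicate 1 nearly meet. Without non-foamy replicate 2, which had 136 counts of Il6st, that difference was -0.34. Without foamy replicate 3, which had 5 counts of Lifr, the difference for Lifr over Il6st was -5.04. Il10ra over Il10rb was 0.167, 0.208 and 0.293 in foamy replicates 1 to 3, against 0.390, 0.268 and 0.326 in non-foamy replicates 1 to 3, and overlapped between the populations (difference -0.58, exact permutation p = 0.20). With 3 libraries against 3, no exact test can go below 0.10, and adjusted over the 4 ratios the values were 0.13 for the first 3 and 0.20 for the last.

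**Figure D3:**
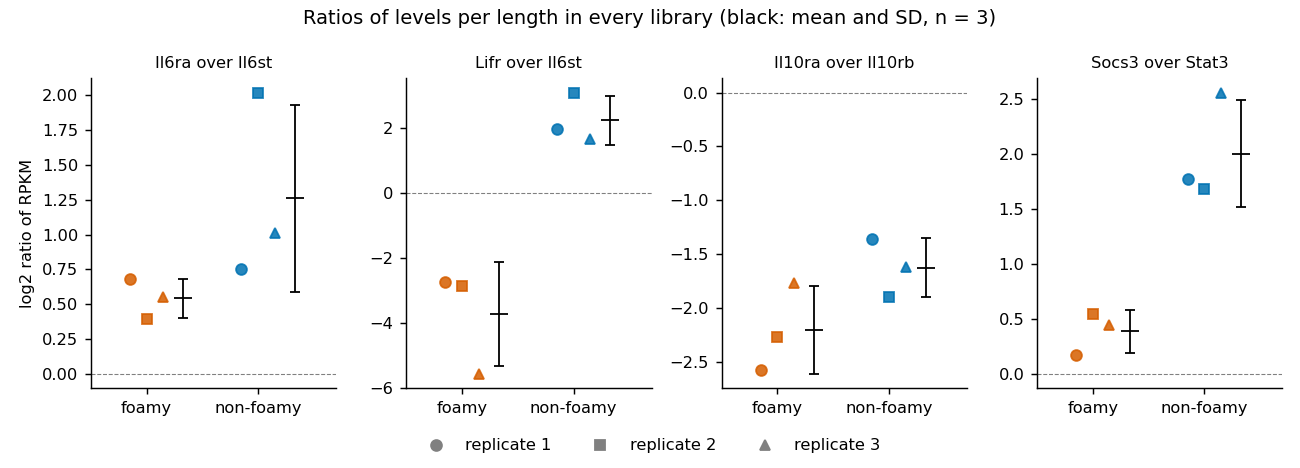
Log2 ratio of deposited RPKM (y axis, own scale per panel) for 4 pairs of genes in the 3 foamy libraries (left, orange) and the 3 non-foamy libraries (right, blue), with mean and SD in black and a dashed line at 0, where both genes are level. Lifr over Il6st has a mean of -3.73 in foamy and 2.23 in non-foamy libraries, on opposite sides of that line.

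The other genes of these pathways were listed by role. Of 64 such genes, 43 were tested; 3 were called lower in foamy libraries, where 2.9% of all genes tested were, and none higher, where 2.5% were. The median log2 fold change of the 43 was -0.35, against -0.04 over all genes tested. At an unadjusted p of 0.05, 7 were lower and 3 higher, where 976 of the 11303 genes tested were higher. No such count over all genes was taken for lower ones. DESeq2 called 1 pathway gene higher, where it called 528 of all genes tested higher. That gene was the SOCS family gene Socs6 (log2 fold change 0.93 by edgeR, SE 0.27, edgeR adjusted p = 0.080), which was also called without a filter on low counts (1.04).

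Most other cytokines of the families were at or near 0. Of the 9 remaining cytokine genes of the interleukin-6 family, 3 were tested and none was called, while Cntf and Clcf1 had 0 counts in all 6 libraries. Ebi3, a subunit of interleukin-27 and interleukin-35, had 22.7, 9.40 and 8.77 CPM in foamy replicates 1 to 3, against 25.2, 32.4 and 29.0 CPM in non-foamy replicates 1 to 3. All foamy values were below the non-foamy ones, and Ebi3 was not called (log2 fold change -1.08, SE 0.39, edgeR adjusted p = 0.16) except without foamy replicate 1 (-1.66, edgeR adjusted p = 0.041). Il27, the other subunit of interleukin-27, reached at most 2.42 CPM in a foamy library and 2.59 CPM in a non-foamy one. None of the 6 remaining interleukin-10 family cytokine genes passed the filter on low counts.

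Among the remaining receptor genes, Osmr, which pairs with gp130 to receive oncostatin M in mice, had 1, 0 and 20 counts in foamy replicates 1 to 3, against 6, 6 and 3 counts in non-foamy replicates 1 to 3, and was not tested. Il11ra1, the interleukin-11 receptor gene, had 16.8, 16.1 and 16.6 CPM in foamy replicates 1 to 3, against 7.57, 9.67 and 8.45 CPM in non-foamy replicates 1 to 3. It was above 0 where the other 4 tested receptor genes of the family were below, but was not called (log2 fold change 0.95, SE 0.35, edgeR adjusted p = 0.16). None of the 5 remaining interleukin-10 family receptor genes was tested. Il20ra and Il22ra1 had 0 counts in all foamy libraries and were also near 0 in non-foamy ones. In non-foamy replicates 1 to 3, Il20ra had 0, 0 and 1 counts and Il22ra1 had 4, 0 and 2 counts.

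None of the 10 other Janus kinase and STAT genes was called, and their median log2 fold change was -0.09. Jak1, the kinase that both receptor families use, had a mean of 131 ± 14.5 CPM in the foamy group and 142 ± 8.29 CPM in the non-foamy group (SD, n = 3 each). Of the 15 inhibitor genes other than Socs3, 14 were tested and none was called, with a median of -0.33. Pias1, a STAT inhibitor, had the lowest p among those below 0 (log2 fold change -0.58, SE 0.19, edgeR adjusted p = 0.11), and it was called with total counts as the only scaling (-0.86, edgeR adjusted p = 0.017). The 3 genes of receptor shedding, the proteases Adam10 and Adam17 and their regulator Rhbdf2, were not called.

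Among 12 genes that Stat3 or interleukin-10 is known to induce, 11 were tested. Of these, 3 were called lower in foamy libraries, where 2.9% of all genes tested were, and none higher, where 2.5% were. The median log2 fold change was -0.69, against -0.04 over all genes tested. Nfil3, at 0.31, was above 0. Pim1, a survival kinase, had 295, 251 and 290 CPM in foamy replicates 1 to 3, against 1037, 627 and 756 CPM in non-foamy replicates 1 to 3 (log2 fold change -1.53, SE 0.21, edgeR adjusted p = 0.0016), and was called under all 14 alternative settings. Cd163, the haemoglobin scavenger receptor, had 0.09, 0.33 and 0.16 CPM in foamy replicates 1 to 3, against 1.68, 42.3 and 12.4 CPM in non-foamy replicates 1 to 3. Its non-foamy libraries differed widely (log2 fold change -6.56, SE 1.13, edgeR adjusted p = 0.0066), and it was not called by limma-voom (-5.64, adjusted p = 0.27). Without non-foamy replicate 2, the highest library, the log2 fold change of Cd163 was -5.13 and it was still called (edgeR adjusted p = 0.034). Myc, a growth regulator, had 42.5, 31.5 and 35.4 CPM in foamy replicates 1 to 3, against 73.0, 75.2 and 62.6 CPM in non-foamy replicates 1 to 3 (log2 fold change -0.94, SE 0.23, edgeR adjusted p = 0.034). Myc was called under 6 of the 14 alternative settings. It did not pass without a filter on low counts (-0.84, edgeR adjusted p = 0.097) or against a 1.5-fold change (edgeR adjusted p = 0.30). It also did not pass when any 1 foamy library was left out (-1.06, -0.84 and -0.92 for replicates 1 to 3), or when non-foamy replicate 1 (-0.92) or 2 (-0.89) was. The other 8 tested genes of the list, which include the interleukin-10 response genes Nfil3, Etv3, Sbno2 and Bcl3 and the interleukin-4 receptor gene Il4ra, were not called. Several of these genes respond to other signals too, and the list was written with earlier results of these libraries known.

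**Figure D4:**
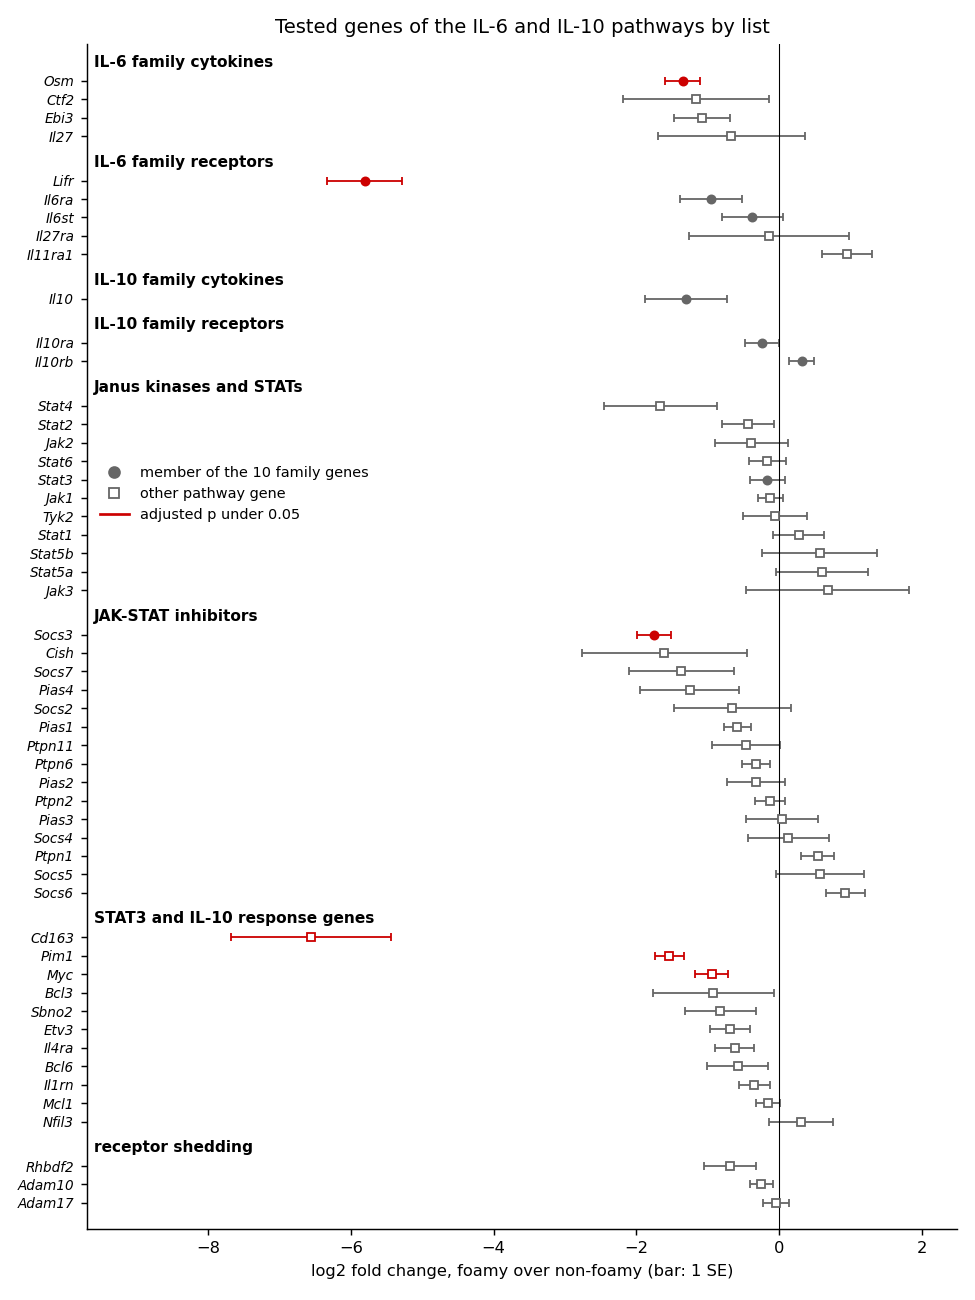
Log2 fold change (foamy over non-foamy, x axis, bars of 1 SE) of the 52 tested genes of the pathway lists, grouped by role, with the 9 family genes as filled circles, the others as open squares and genes with an adjusted p under 0.05 in red. The 6 red genes, Lifr, Socs3, Osm, Cd163, Pim1 and Myc, all lie below 0.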

How the data were processed

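RNA was read from 3 foamy and 3 non-foamy libraries. Per the labels' protocols, the outer vessel layer was stripped after an 8 min digestion and the rest of the aorta digested for 70 min at 37 °C. Libraries came from SMARTer Ultra Low cDNA with 12 amplification cycles and were read as single 50-base reads. GRCm38, featureCounts 1.4.5, Subread and STAR 2.0.4b are listed in the submitters' processing notes; strandedness and multimapping settings are not stated. No molecular identifiers are named, so floors cover counting error only.

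The deposited counts are whole reads per gene. The deposited CPM divides them by the library's total in genes, and the deposited RPKM divides that CPM by gene length, both checked on every gene to 1e-06. Symbols were found for 40254 of 41388 genes.

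Counts were tested with edgeR 4.0.16 in R 4.3.3 (filterByExpr, TMM, robust quasi-likelihood F-test, Benjamini-Hochberg over 11303 genes, threshold 0.05), over all 6 libraries with no covariate. Each fold change has foamy on top, and its SE was taken as the absolute log2 value over the root of F. Ratios of RPKM were compared by an exact permutation test. The procedure was tested on simulated data, with 200 genes changed and 1 spread (dispersion) common to all genes. The fits let the spread differ by gene, so that test does not give the error rate in these data. Alternatives were RLE factors, total counts only, DESeq2 1.42.0, limma-voom (limma 3.58.1), no filter, a stricter filter (10 counts in at least 3 libraries, mean CPM of 5), a block for replicate number, a 1.5-fold test threshold and leaving out each library. All 10 genes are named, with the other pathway genes that were called; uncalled ones were picked after their values were seen. The genes, lists and tests were chosen with earlier results of these data known.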

Additional observations from a re-analysis of the deposited data

How the results depend on the processing

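Of the 10 genes, 3 were called lower in the chosen fit and 2 to 4 under the alternatives, and none was called higher under any of the 14. Socs3, Lifr and Pim1 were called under every alternative. Over all genes tested, 283 were called higher and 328 lower. With total counts as the only scaling these were 165 and 614, with DESeq2 528 and 645, and with a test against a 1.5-fold change 105 and 171; without a filter on low counts 457 were higher. Leaving out 1 library at a time gave 113 to 285 higher and 158 to 294 lower. Pathway genes other than the 10 called higher numbered 1 with DESeq2 and without a filter, against 0. The Stat3 log2 fold change ran from -0.34 to 0.080 over the libraries left out, and was above 0 only without non-foamy replicate 1. All 4 ratios kept their direction under every alternative run; over the libraries left out, the difference of log2 ratios ran from -6.45 to -5.04 for Lifr over Il6st, from -1.78 to -1.34 for Socs3 over Stat3, from -0.97 to -0.34 for Il6ra over Il6st and from -0.80 to -0.39 for Il10ra over Il10rb.

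The replicate numbers are shared by the populations, but samples of the same number did not deviate together (correlations of -0.07, -0.02 and -0.03 across genes, for numbers 1 to 3). Whether samples of the same number share mice is not stated, and the chosen fit did not pair them. With the replicate number as a block, 159 genes were called higher and 232 lower, and Lifr, Socs3, Osm, Cd163 and Pim1 were called, but not Myc. Il6 and most other cytokine genes of the families had too few counts in these libraries to be tested.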

Other observations

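Single libraries stood apart in a few low genes of the pathways. Il20, an interleukin-10 family cytokine gene, had 0, 1 and 0 counts in foamy replicates 1 to 3, against 2, 0 and 77 counts in non-foamy replicates 1 to 3. Stat5b had 8.20, 9.84 and 6.30 CPM (TMM-normalized) in foamy replicates 1 to 3, against 7.68, 8.35 and 0.43 CPM in non-foamy replicates 1 to 3. Il27ra, the interleukin-27 receptor gene, had 1.52, 0.50 and 2.58 CPM in foamy replicates 1 to 3, against 0.27, 4.01 and 0.79 CPM in non-foamy replicates 1 to 3. Stat4 had 4.17, 0.39 and 2.64 CPM in foamy replicates 1 to 3, against 4.92, 5.71 and 12.2 CPM in non-foamy replicates 1 to 3, and was not called (log2 fold change -1.66, SE 0.79, edgeR adjusted p = 0.29).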
